A study of Mus musculus with 11 samples.

Results

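Integrins are the adhesion receptors by which T cells leave blood, crawl through tissue and stay in it. The 10 integrin genes described here were Itgae, Itgb7, Itga4, Itgb1, Itgal, Itgb2, Itgav, Itga6, Itgb3 and Itgam, chosen by name as the alpha and beta chains tied to T cell residency and adhesion. All 10 were among the 14604 genes listed for regulatory T cells (Tregs), which had been isolated from MC38 tumors and from the spleens of tumor-bearing mice. MC38 is a mouse colon carcinoma line that was implanted in every mouse.

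Each integrin is a pair of 1 alpha and 1 beta chain, and the pair sets the ligand. Alpha E beta7 (CD103) binds E-cadherin on epithelium, alpha4 beta7 binds MAdCAM-1 of gut vessels, alpha4 beta1 binds VCAM-1 and fibronectin, and alpha6 beta1 binds laminin. The leukocyte beta2 chain pairs with alpha L (LFA-1, a receptor for ICAMs) or with alpha M (Mac-1 or CD11b, best known from myeloid cells), and alpha v pairs with beta1, beta3 and other beta chains to bind RGD-bearing matrix proteins and latent TGF-beta.

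RNA of 11 libraries was sequenced, 6 from spleen and 5 from tumor. Mice labelled CD177flox/flox are called WT here and gave 3 libraries from each tissue. Mice labelled CD177flox/flox/FOXP3-CreYFP are called KO and gave 3 spleen and 2 tumor libraries. Every mouse thus carried the floxed CD177 allele and an MC38 tumor, and the groups differed in a Cre recombinase under Foxp3, which acts in cells that express Foxp3. Neither the strain, the age nor the separate animal behind each library is in the labels. By the study's methods the spleens came from the mice that gave the tumors, so libraries of the tissues share animals, but which spleen belongs to which tumor is not given, and the tests treat the libraries as separate. The p-values thus measure the spread between these libraries, which may be partly technical. Cd177 was not among the listed genes, which left no check of the genotype labels.

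Values were deposited as log2(n + 1), where n is the summed estimated count of a gene on a scale that is not stated. Totals of n ran from 712832 to 844331 in spleen and from 1103159 to 1304548 in tumor, and the methods give the sequencing depth only as 1 approximate figure for every library, so the reads behind each value are not known. Cd4, used for the sort, was present in both tissues at 7.72 in spleen and 7.30 in tumor, and Foxp3, which was not used for it, was at 4.72 to 6.12 in tumor against 5.98 to 6.75 in spleen. Genes of a T cell list (10 of 12) were lower in tumor, with a summed level of 11.08 to 11.18 in spleen and 10.08 to 10.82 in tumor, and of 6 Treg genes 2 were higher and 3 lower. Of 16 myeloid genes tested, 15 were higher in tumor and 1 (Cxcr2) lower. Their summed log2 level was 8.35 to 9.29 in spleen and 13.76 to 14.29 in tumor, led by Lyz2 at 12.35, while S100a8 and S100a9 were not analysed here. The part of such cells in any integrin value was not tested, and in these bulk libraries fewer cells of a type and less RNA per cell cannot be told apart.

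The tumor and spleen libraries of sorted Tregs differed in 9 of the 10 integrin genes in limma (Benjamini-Hochberg adjusted p below 0.05). Itgam, Itgav, Itgb2, Itgb1 and Itgb3 were higher in tumor and Itga6, Itga4, Itgal and Itgb7 lower. These are values of bulk libraries, and the part of other cells in them was not tested. The background was high, since 78.9% of 13897 genes tested passed, 43.1% as higher and 35.9% as lower in tumor. The 5 tumor values all lay on 1 side of the 6 spleen values for 8 of the 10 genes, as they did for 63.5% of all genes. The median difference, tumor minus spleen, was 0.41 on the log2 scale for the integrin genes and 0.08 for all genes tested. With 10 genes and this background, neither share is read as a result about integrins as a family. By size, Itgam ranked 33 of 13897 genes from the largest rise, Itgav 1438, Itga4 13374 and Itga6 13397. The plot of the 10 genes by library shows these values.

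**Figure D1:**
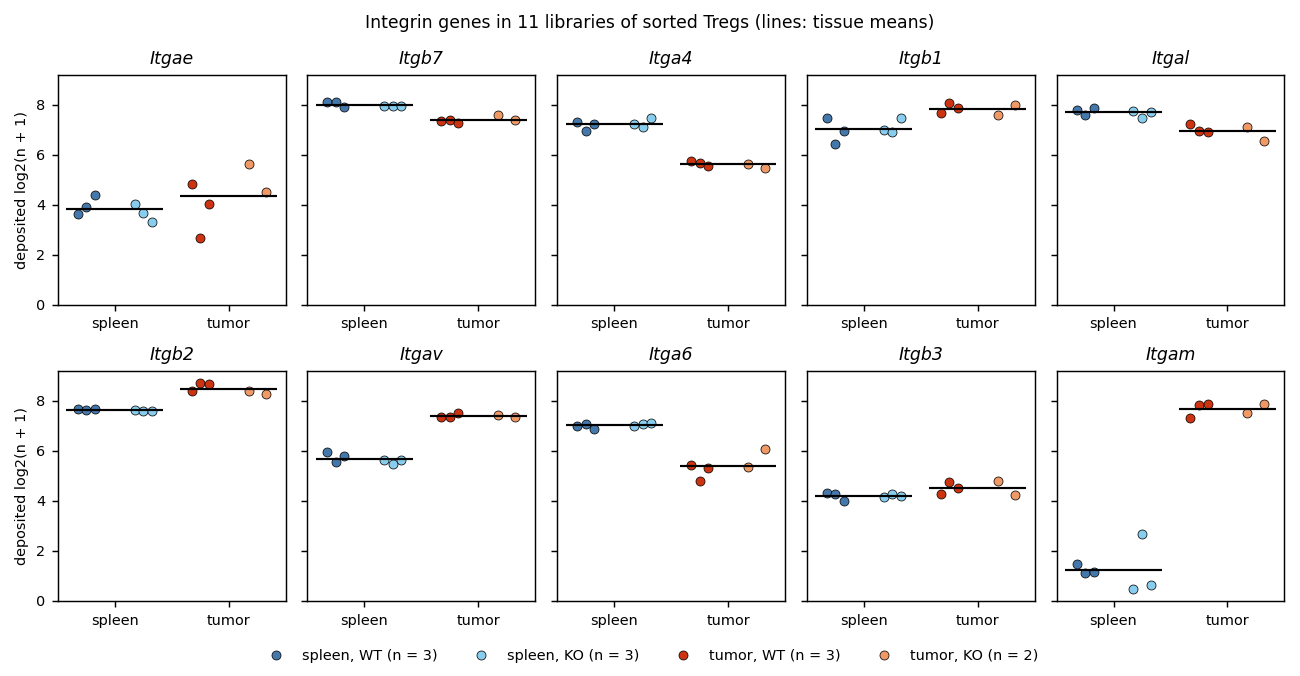
Each panel plots 1 integrin gene, with the deposited log2(n + 1) value of every library on the vertical axis, points grouped by tissue and genotype, and lines at the tissue means. Itgam lay between 0.49 and 2.66 in spleen and between 7.30 and 7.87 in tumor, whereas the tumor libraries of Itgae, from 2.66 to 5.63, enclosed those of spleen.

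Promoter sequence is shown for members that differed in opposite directions, Itgam and Itgav (higher in tumor) and Itga4 and Itgb7 (lower). Sequences were taken from RefSeq (GRCm38.p6) as the 250 bases before and 50 bases from the annotated start, in the direction of transcription, and 5 of the 10 members matched, Itgb1 being the fifth. Capitals mark matches on either strand to 4 short motifs, GAGGAA (PU.1, a myeloid factor), TGTGGT (RUNX factors), CACCC (KLF factors) and GGGCGG (SP factors). The windows are chr7:128062390-128062689 on the plus strand for Itgam, chr2:83724147-83724446 on the plus strand for Itgav, chr2:79255176-79255475 on the plus strand for Itga4 and chr15:102231886-102232185 on the minus strand for Itgb7.
Itgam: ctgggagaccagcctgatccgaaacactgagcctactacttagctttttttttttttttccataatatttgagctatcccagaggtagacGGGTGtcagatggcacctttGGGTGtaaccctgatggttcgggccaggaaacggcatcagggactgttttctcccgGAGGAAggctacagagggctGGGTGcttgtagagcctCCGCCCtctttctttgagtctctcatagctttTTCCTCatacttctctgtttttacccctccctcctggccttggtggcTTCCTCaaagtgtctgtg
Itgav: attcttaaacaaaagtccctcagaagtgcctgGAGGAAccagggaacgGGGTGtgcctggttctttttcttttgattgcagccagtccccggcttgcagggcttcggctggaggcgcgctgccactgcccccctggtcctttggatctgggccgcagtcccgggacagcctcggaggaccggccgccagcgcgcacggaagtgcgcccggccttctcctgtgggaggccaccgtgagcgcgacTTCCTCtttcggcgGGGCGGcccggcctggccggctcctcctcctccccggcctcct
Itga4: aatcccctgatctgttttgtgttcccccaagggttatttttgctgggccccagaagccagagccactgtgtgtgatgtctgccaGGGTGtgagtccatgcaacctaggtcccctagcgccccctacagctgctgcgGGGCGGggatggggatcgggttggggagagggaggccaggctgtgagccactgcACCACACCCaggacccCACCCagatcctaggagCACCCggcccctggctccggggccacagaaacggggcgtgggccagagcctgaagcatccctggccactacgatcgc
Itgb7: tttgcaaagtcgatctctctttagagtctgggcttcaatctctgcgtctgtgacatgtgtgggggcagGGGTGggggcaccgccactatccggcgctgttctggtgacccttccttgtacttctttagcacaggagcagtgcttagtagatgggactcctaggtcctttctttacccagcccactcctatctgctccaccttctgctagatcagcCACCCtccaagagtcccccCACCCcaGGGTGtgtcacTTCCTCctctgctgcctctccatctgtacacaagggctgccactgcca
The Itgam window held 3 PU.1 matches, with first bases at -84, -15 and 32 from the start, and the Itgav window held 2. The windows of Itgb7, lower in tumor, and of Itgb1, higher in tumor, held 1 PU.1 match each and the Itga4 window 0, while 28.3% of 32851 promoter windows of this length held at least 1. The RUNX motif was found in Itga4 only among the 5 windows, against 16.8% of all windows, and its match there overlapped a KLF match. The KLF motif, present in 57.5% of all windows, occurred 4 times in Itga4 and in Itgb7, 3 times in Itgam and 1 time in Itgav. The SP motif, in 35.7% of all windows, occurred 1 time in each of the windows of Itgam, Itgav and Itga4 and was not found in that of Itgb7. A match describes the letters of a window and does not show that a factor binds.

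Itgae, the alpha chain of the residency integrin CD103, was not called between the tissues. Its level was 4.83, 2.66 and 4.02 in the 3 WT tumor libraries and 5.63 and 4.51 in the 2 KO tumor libraries, while spleen ranged from 3.30 to 4.39 with a median of 3.78. Both the highest and the lowest of the 11 libraries thus came from tumor. The difference was 0.51 (SE 0.41, 95% interval -0.37 to 1.39, limma adjusted p = 0.26). The call depended on 1 library and on the scaling. Without WT tumor replicate 2 the difference was 0.93 with a limma adjusted p of 0.00919, while within WT it was 0.45 (adjusted p = 0.311). With all 11 libraries it was 1.39 with T cell genes as the reference (adjusted p = 0.000835) and -0.074 with equal totals (adjusted p = 0.861). The SD of Itgae was 1.10 (n = 5) in tumor, the largest of the 10 genes there, and 0.38 (n = 6) in spleen. CD8 T cells and some dendritic cells also carry CD103. Of 10 CD8 T and NK cell genes 6 were higher in tumor and 1 lower, with a summed level of 5.50 to 6.47 in spleen and 7.08 to 8.95 in tumor, where Nkg7 led at 6.84. Of 6 dendritic cell genes, a list added after values were seen, 5 were higher. Their summed level was 2.92 to 3.69 in spleen and 4.36 to 5.05 in tumor. KO tumor replicate 1, with the highest Itgae, was the highest in this sum. WT tumor replicate 2, with the lowest Itgae, came next at 4.67. In the CD8 T and NK cell sum KO tumor replicate 1 was at 8.15 and WT tumor replicate 2 at 8.39. Within tumor, WT replicate 2 had the lowest Foxp3 (4.72) and the lowest summed Treg level (9.64). The part of these cells in Itgae was not tested.

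Itgb7, the beta chain that Itgae and Itga4 share, fell in tumor. It was at 7.35, 7.37 and 7.27 in WT tumor and 7.57 and 7.38 in KO tumor, and spleen ranged from 7.90 to 8.12 with a median of 7.94. The tissues did not overlap, and the gap was small and even. The difference was -0.60 (SE 0.067, limma adjusted p = 2.67e-06), which is a spleen-to-tumor ratio of n + 1 of 1.52. The T cell list fell as well, and with its genes as the reference Itgb7 was at 0.28 and not called (limma adjusted p = 0.0855).

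Itga4, which with beta7 or beta1 brings lymphocytes onto inflamed or gut vessels, fell further. Its level was 5.72, 5.68 and 5.55 in WT tumor and 5.63 and 5.47 in KO tumor, while spleen ranged from 6.93 to 7.46 with a median of 7.22. All 5 tumor libraries sat more than 1 log2 unit below the lowest spleen library. The difference was -1.60 (SE 0.087, limma adjusted p = 3.5e-09), a 3.02-fold lower n + 1. Exons of Itga4 overlap those of Cerkl on the opposite strand, which averaged 3.83 in spleen and 1.97 in tumor, and whether counting used strand is not stated.

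Itga6, the laminin-binding chain, fell by a like amount but less evenly. It was at 5.44, 4.81 and 5.31 in WT tumor and 5.37 and 6.08 in KO tumor, and spleen held to 6.87 to 7.13 with a median of 7.04. The tissues did not overlap, and the SD was 0.45 in tumor and 0.09 in spleen. The difference was -1.62 (SE 0.16, limma adjusted p = 1.07e-06), a 3.08-fold lower n + 1.

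Itgb1, the beta chain of the fibronectin, VCAM-1 and laminin receptors and the partner of Itga4 and Itga6, was higher in tumor while these partners were lower. Tumor values were 7.65, 8.06 and 7.86 in WT and 7.60 and 7.97 in KO, and spleen ranged widely from 6.42 to 7.47 with a median of 6.95. The tissues did not overlap, but the lowest tumor value lay close to the highest spleen value. The difference was 0.80 (SE 0.17, limma adjusted p = 0.000797), and it depended on scaling, at 0.05 after quantile normalization (adjusted p = 0.814) and 0.18 with equal library totals (adjusted p = 0.396). Fibroblast genes moved with it, 5 of 6 being higher in tumor, with a summed level of 1.84 to 2.18 in spleen and 8.95 to 10.02 in tumor, led by Col3a1 at 8.84, while Dcn, Lum and Pdgfra were not analysed here. Their part in Itgb1 was not tested.

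Among the leukocyte beta2 integrins, Itgal, the alpha chain of LFA-1, fell. It was at 7.21, 6.95 and 6.89 in WT tumor and 7.11 and 6.52 in KO tumor, and spleen ranged from 7.48 to 7.87 with a median of 7.71. The libraries of the tissues did not overlap. The difference was -0.75 (SE 0.11, limma adjusted p = 4.40e-05), but with T cell genes as the reference it was 0.13 and not called (limma adjusted p = 0.327).

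Itgb2, the shared beta chain, was higher in tumor although its T cell partner Itgal was lower. It was at 8.40, 8.70 and 8.68 in WT tumor and 8.38 and 8.26 in KO tumor, and spleen held to 7.58 to 7.70 with a median of 7.65. Spleen libraries were close together for this gene, with an SD of 0.04. The difference was 0.85 (SE 0.079, limma adjusted p = 5.17e-07), and after quantile normalization it was -0.016 and not called. The part of the myeloid cells, whose list rose, in Itgb2 was not tested.

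Itgam, the alpha chain of Mac-1, differed most. It was at 7.30, 7.85 and 7.87 in WT tumor and 7.53 and 7.86 in KO tumor, and in spleen it ranged from 0.49 to 2.66 with a median of 1.14. Every tumor library was thus far above every spleen library. The difference was 6.43 (SE 0.31, limma adjusted p = 1.32e-09), and the ratio of n + 1 was 86.0. Beside it stands the rise of the myeloid list given above, whose part was not tested. In spleen, KO replicate 2 had the highest Itgam (2.66), the highest Itgax (2.63, against 0.71 to 1.48 in the others) and the highest Lyz2 (6.87, against 3.83 to 5.34). The summed myeloid level was highest in WT spleen replicate 1 (9.29, against 9.23 in KO spleen replicate 2), where Itgam was at 1.46. Cd14 was also highest there (2.52, against 2.46 in KO spleen replicate 2). Itgam shares exon sequence with Gm49368 on the same strand, so its reads may be split with that gene model.

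Itgav, the common partner of the RGD-binding and TGF-beta-activating pairs, was higher in tumor with little spread. It was at 7.34, 7.38 and 7.51 in WT tumor and 7.43 and 7.38 in KO tumor, and spleen ranged from 5.47 to 5.96 with a median of 5.64. The tissues were well apart. The difference was 1.73 (SE 0.081, limma adjusted p = 9.48e-10), a ratio of n + 1 of 3.31. The myeloid and fibroblast lists rose in the same libraries, and their part in Itgav was not tested.

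Itgb3, the beta chain of the vitronectin and platelet fibrinogen receptors, rose only slightly. It was at 4.27, 4.75 and 4.51 in WT tumor and 4.81 and 4.23 in KO tumor, and spleen ranged from 3.98 to 4.31 with a median of 4.24. These ranges overlapped. The difference was 0.32 (SE 0.11, limma adjusted p = 0.0217, exact two-sided permutation p = 0.0433), and it was not called without WT tumor replicate 2 (0.26, adjusted p = 0.0592) or without KO tumor replicate 1 (0.24, adjusted p = 0.0584). It was not called after quantile normalization (0.078, adjusted p = 0.534), with medians centred (0.098, adjusted p = 0.454) or with equal totals, where it turned to -0.28 (adjusted p = 0.0837). Of 5 platelet and megakaryocyte genes 3 were lower and 1, Pf4, which macrophages also express, was higher. The summed level of these genes was 4.47 to 5.47 in spleen and 7.86 to 9.28 in tumor, where Pf4 alone was at 7.83 to 9.25. Their part in Itgb3 was not tested.

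For the 8 genes whose libraries did not overlap, that fixes the exact two-sided permutation p at 0.0043, the smallest that 6 against 5 libraries allow. The same holds for the 63.5% of all genes without overlap, so this p adds nothing to the separation. Directions were read on 4 further scalings, which moved the median of all genes from 0.08 to -0.16 (quantile), -0.14 (median centring), -0.44 (equal totals) or 0.96 (T cell genes as reference). Itgam, Itgav, Itga4 and Itga6 kept their direction and call on all of them and in the other alternatives run, 24 in all. Their differences ranged from 4.99 to 7.31 for Itgam, 1.11 to 2.61 for Itgav, -2.22 to -0.72 for Itga4 and -2.24 to -0.74 for Itga6. Of the called members, 5 were higher and 4 lower as deposited, against 2 and 4 after quantile normalization or with equal totals, 4 and 4 when medians were centred, and 6 and 2 with T cell genes as reference. The share of higher calls over all genes moved as well, at 54.5% as deposited, 42.1% after quantile normalization, 29.6% with equal totals, 43.7% with medians centred and 90.6% with T cell genes as reference.

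**Figure D2:**
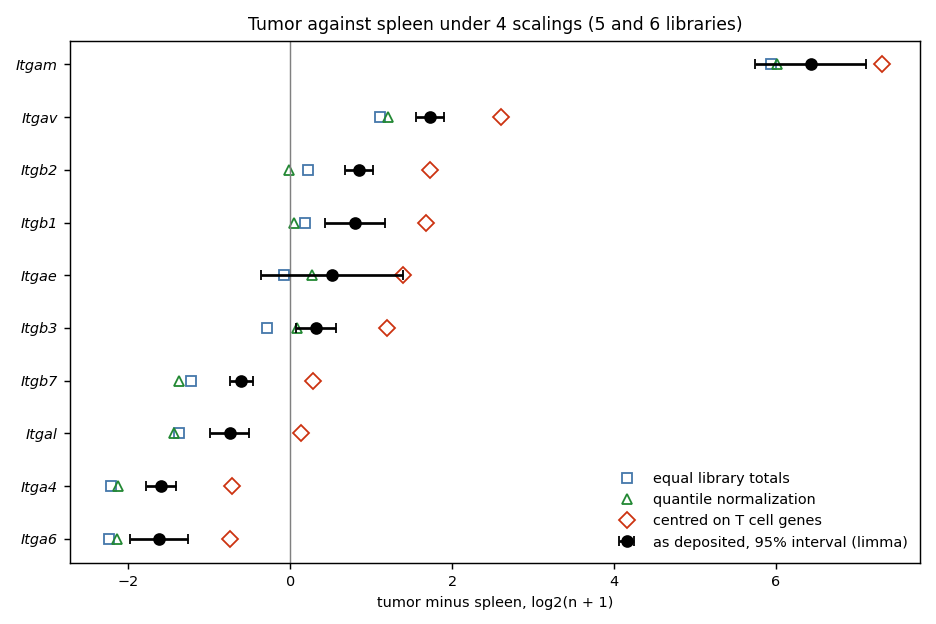
The horizontal axis gives the tumor minus spleen difference in log2(n + 1) for each of the 10 genes. Deposited values and their 95% interval from limma are in black. There is 1 marker each for equal library totals, quantile normalization and T cell genes as the reference. Itgam, Itgav, Itga4 and Itga6 stayed on their side of 0 in every scaling shown. Itgb2 ran to -0.016 under quantile normalization and Itgb7 to 0.28 with T cell genes as the reference.

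A difference between 2 chains in the same library does not change, up to the added 1, when the whole library is multiplied by 1 factor, so alpha minus beta was compared between tissues for 8 known pairs. Chain lengths differ, so only the shift between tissues was read and not which chain was more abundant. Itga4 dropped relative to each partner. The shift was -2.40 against Itgb1 (0.18 ± 0.24 in spleen, n = 6, to -2.22 ± 0.26 in tumor, n = 5) and -0.99 against Itgb7 (-0.79 ± 0.24 to -1.78 ± 0.14). Against Itgb1, Itga6 shifted by -2.43. Within the beta2 integrins the 2 alpha chains parted, Itgal minus Itgb2 going from 0.05 ± 0.13 to -1.55 ± 0.29 and Itgam minus Itgb2 from -6.38 ± 0.78 to -0.80 ± 0.25. Itgav rose against Itgb3 by 1.41 (1.48 ± 0.22 to 2.89 ± 0.25) and against Itgb1 by 0.92 (-1.35 ± 0.34 to -0.42 ± 0.21). For these 7 pairs the exact two-sided permutation p was 0.0043, or 0.0049 after Benjamini-Hochberg adjustment over the 8 pairs. The tissues did not overlap in any of the 7. Pairs of other genes were not compared. Among these is Itgav with Itgb5, another partner of alpha v, which rose by 3.68 against 1.73 for Itgav. For 63.5% of single genes the tissues did not overlap either. The count is thus not read as a trait of these pairs.

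Itgae minus Itgb7, the CD103 pair, went from -4.18 ± 0.41 in spleen (n = 6) to -3.06 ± 1.04 in tumor (n = 5). The shift of 1.12 had an exact two-sided permutation p of 0.0476, also 0.0476 adjusted over the pairs, with ranges of -4.63 to -3.51 and -4.71 to -1.94 that overlapped. It was past the threshold in 2 of 11 fits that left out 1 library, at an adjusted p of 0.00952 without WT tumor replicate 2 and 0.0476 without WT spleen replicate 3, and ran from 0.84 to 1.53 over the 11.

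**Figure D3:**
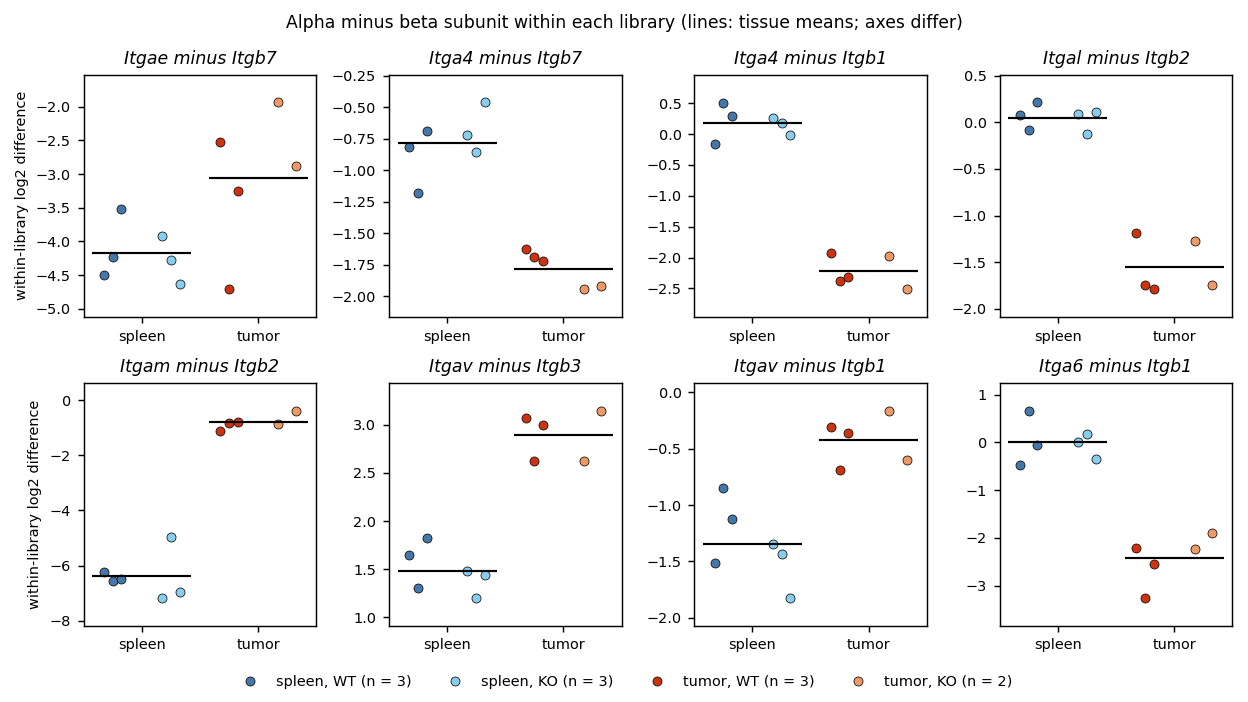
For each of 8 pairs the axis gives alpha minus beta in log2 units within each library (vertical axes differ), with points for libraries by tissue and genotype and lines for tissue means. Itga4 minus Itgb1 went from a mean of 0.18 in spleen to -2.22 in tumor and Itgam minus Itgb2 from -6.38 to -0.80, whereas the tissues overlapped for Itgae minus Itgb7.

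The tissue difference was then read within each genotype. In WT mice 8 of the 10 genes were called, 4 higher and 4 lower, beside 70.5% of all genes (39.2% higher and 31.3% lower). In KO mice 8 were called, 4 higher and 4 lower, beside 65.7% of all genes (36.2% higher and 29.5% lower). Itgam differed by 6.42 in WT and 6.43 in KO, Itgav by 1.63 and 1.82, Itga4 by -1.50 and -1.71, and Itga6 by -1.79 and -1.34. In KO the call of Itga6 was lost with T cell genes as reference (-0.42, limma adjusted p = 0.233). It was also lost with Bonferroni adjustment (adjusted p = 0.965). Itgb2 was 0.93 and 0.71, Itgal -0.72 and -0.82, and Itgb7 -0.72 and -0.46, each called in both genotypes. Itgb1 was called in WT (0.92, limma adjusted p = 0.00643) and missed the threshold in KO (0.67, adjusted p = 0.0519). Itgb3 was called in neither, at 0.32 (adjusted p = 0.109) and 0.31 (adjusted p = 0.167). Itgae was -0.13 in WT (SE 0.48, limma adjusted p = 0.816) and 1.41 in KO (SE 0.54, adjusted p = 0.0405), and without KO tumor replicate 1 the KO difference was 0.84 (adjusted p = 0.288). Such a fit leaves 1 KO tumor library, which is assumed to vary like the other groups. The call was also lost after quantile normalization (1.15, adjusted p = 0.0939), with medians centred (adjusted p = 0.0809), with equal totals (0.80 at an adjusted p of 0.161), and without WT spleen replicate 2, KO spleen replicates 2 or 3, or WT tumor replicate 3 (1.22 to 1.41). Other calls near the threshold moved in the same way. Itgb1 in KO was called without WT spleen replicates 1 or 2 (0.67) or KO spleen replicate 3 (0.85), and Itgb3 was called in WT without WT tumor replicate 1 (0.44) and in KO without KO tumor replicate 2 (0.60, again with 1 KO tumor library left).

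The difference between those differences, the interaction of tissue and genotype, was called in limma for 0 of the 10 genes, with 0% of all genes called and 0 members against 2.76% of all genes at an unadjusted p below 0.05. For Itgae it was 1.54 (SE 0.73, adjusted p = 0.9997).

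KO and WT libraries of the same tissue did not pass the test for any integrin gene. In spleen the differences, KO minus WT, ran from -0.31 to 0.18 over the 10 genes, 0 were called by limma and 0 were at an unadjusted p below 0.05, beside 0% and 2.02% of all genes. In tumor they ran from -0.27 to 1.23, 0 of 10 were called beside 0.0072% of all genes, and 3 were at an unadjusted p below 0.05, beside 4.56%. Those 3 were Itgae at 1.23 (SE 0.54), Itga6 at 0.54 (SE 0.21) and Itgb2 at -0.27 (SE 0.10), each with a limma adjusted p of 0.9997. These comparisons share their libraries with the tissue differences above. The order of the 4 groups was set by tissue for 9 of the genes, both tumor groups lying on 1 side of both spleen groups. The share over all genes was not counted for this order, while single libraries did not overlap for 63.5% of them. The number is thus not read as a trait of integrins. For Itgae the order was KO tumor (5.07), WT spleen (3.97), WT tumor (3.83) and KO spleen (3.66). Of these neighbours WT spleen and WT tumor were compared and did not pass the test.

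The other integrin chains were read from a list of 16, of which Itga8 was not analysed here. Of 14 tested 8 were higher in tumor, 4 lower and 2 (Itgb8 and Itga2) not called, beside 43.1% of all genes higher and 35.9% lower. The median difference was 0.89 beside 0.08 over all genes. The largest rises were in Itgax (CD11c, a dendritic cell and macrophage chain, 1.25 to 5.78, difference 4.53), Itga5 (the fibronectin receptor chain, 1.94 to 5.92, 3.98), Itgb5 (a partner of alpha v for vitronectin, 2.72 to 6.40, 3.68) and Itgb4 (the epithelial laminin receptor chain, 1.17 to 4.27, 3.10). Itgax, Itgb5 and Itgb4 are best known from cells other than T cells. All 8 rises were called on each of the 4 scalings, a share that was not counted over all genes. The largest falls were in Itgad (a beta2 partner, 3.60 to 1.07, -2.53) and Itga2b (the platelet chain CD41, 3.41 to 1.47, -1.94). Itga10 (-0.76) and Itga7 (-0.39) followed. With T cell genes as reference Itga10 was at 0.12 and not called (limma adjusted p = 0.628), while Itga7 turned to 0.49 (limma adjusted p = 0.0202). The falls of Itgad and Itga2b were called on all 4.

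**Figure D4:**
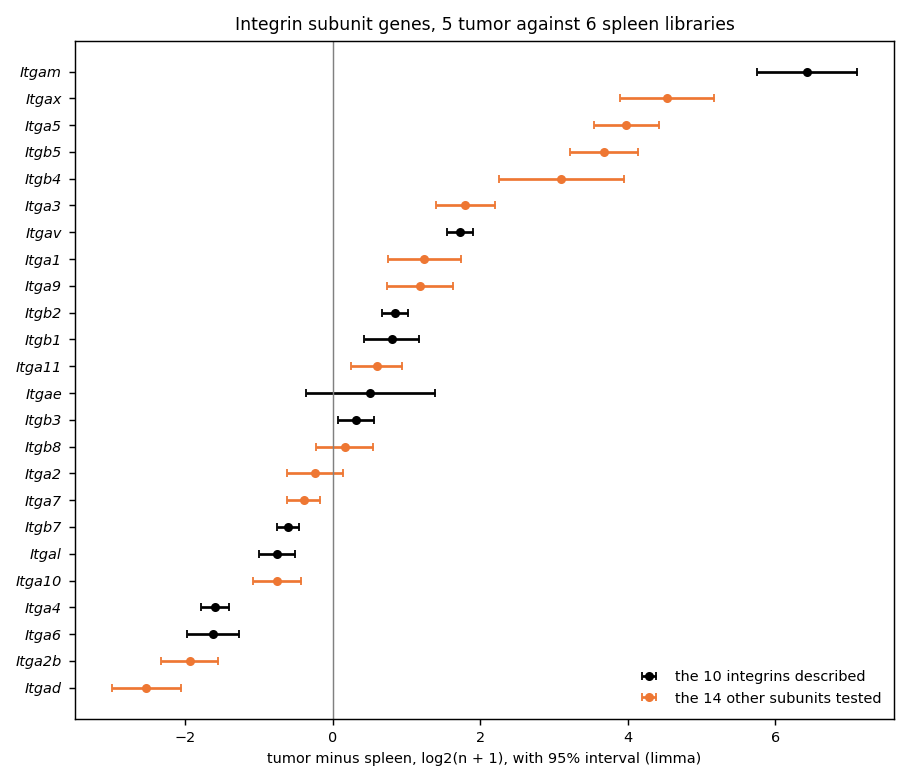
Tumor minus spleen differences in log2(n + 1) are plotted for the 10 integrin genes and the other integrin chains tested, with 95% intervals from limma and 1 line per gene. Itgam (6.43), Itgax (4.53) and Itga5 (3.98) lay farthest to the side of tumor and Itgad (-2.53) farthest to the side of spleen.

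The 4 alpha chains of beta2 are all on chromosome 7 (GENCODE M21, GRCm38), with Itgam, Itgax and Itgad next to each other, and they differed in direction. Itgal (chr7:127296260-127335138) is 727.5 kb from Itgam (chr7:128062640-128118491), which is followed after 11.1 kb by Itgax (chr7:128129547-128150657) and after a further 3.7 kb by Itgad (chr7:128154376-128223816), all on the plus strand. Itgam and Itgax were higher in tumor, and Itgal and Itgad lower, although Itgal was not called with T cell genes as the reference. Itgad overlaps exons of Gm17831 on the same strand. On the same build Itga6 (chr2:71745616-71858416), Itga4 (chr2:79255426-79333123) and Itgav (chr2:83724397-83806916) are on chromosome 2, of which the first 2 were lower and the last higher in tumor. The other members are Itgae (chr11:73090583-73147446) and Itgb3 (chr11:104608000-104670476), Itgb1 (chr8:128685654-128733200), Itgb2 (chr10:77530252-77565708) and Itgb7 (chr15:102215995-102231944, the single member on the minus strand).

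Genes of integrin activation and its adaptors moved both ways. Inside-out activation runs from chemokine and T cell receptors through RAP1 to talin and kindlin at the beta chain tail. Of 26 tested, 15 were higher in tumor, 10 lower and 1 (Cyth1) not called, beside 43.1% of all genes higher and 35.9% lower. The list median was 0.28 beside 0.08 over all genes. The lowest was Rasgrp2, a RAP1 exchange factor of T cells and platelets, at 7.53 in spleen and 3.34 in tumor (-4.19). Tbc1d10c (-2.04), Skap1, a T cell adaptor of the LFA-1 pathway (-1.93), and Rassf5, the RAP1 effector RAPL (-1.09), followed. Higher in tumor were Skap2, the homolog of Skap1 used by myeloid cells (2.72), Vcl, which ties talin to actin (2.58), Tln2 (1.67) and Parvb (1.43). These 4 rises were called on all 4 scalings, as were the falls of Rasgrp2, Tbc1d10c and Skap1, and Rassf5 stayed negative at -0.21 with T cell genes as the reference. Over the list the split of higher to lower calls was 12 to 13 after quantile normalization, 11 to 11 with medians centred, 9 to 14 with equal totals and 19 to 3 with T cell genes as reference. Over all genes 42.1%, 43.7%, 29.6% and 90.6% of calls were higher on these scalings, so the splits moved with the background.

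Ligands of these integrins were mostly higher in tumor libraries. Of 13 tested, 11 were higher and 2 lower, beside 43.1% of all genes higher and 35.9% lower. The list median was 2.09 beside 0.08 over all genes. The share of all genes called on all 4 scalings was not counted. The 11 rises were called on each of the 4. The largest were Spp1 (osteopontin, 8.70), Thbs1 (thrombospondin-1, 6.02), Fn1 (fibronectin, 5.70) and Cdh1 (E-cadherin, the ligand of CD103, 3.32). The 2 lower genes were Icam2, an LFA-1 ligand (-1.85), and Lrrc32, the GARP protein that holds latent TGF-beta on Tregs (-0.54), of which Lrrc32 turned to 0.34 with T cell genes as reference. Matrix proteins and Spp1 are products of stromal and myeloid cells, whose marker lists rose as given above, and their part was not tested. Madcam1, the ligand of alpha4 beta7, was not analysed here.

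The remaining marker lists moved less or downward. All 7 B cell genes were lower in tumor, with a summed level of 7.48 to 8.63 in spleen and 4.87 to 6.33 in tumor, led there by Ighm at 5.36. Of 4 endothelial genes 2 were higher and 2 lower, with Pecam1 leading at 4.28 and summed levels of 6.21 to 6.47 in spleen and 4.71 to 5.07 in tumor. Of 3 epithelial genes tested Cdh1, named above as a ligand, was higher, Lgals4 lower (-0.94) and Epcam not called (-0.20), with summed levels of 3.34 to 4.02 in spleen and 4.22 to 4.97 in tumor. Highest of the T cell list in tumor was Cd2 (8.01), and of the Treg list Ctla4 (8.72). Of the sort genes, Cd3e was lower by 0.62 and Tnfrsf18, which encodes GITR, higher by 1.08, while Il2ra was at -0.27 (limma adjusted p = 0.123). Foxp3, outside the sort, fell by 0.85.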

How the data were processed

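Tregs were sorted, per the study's methods, as live CD4+GITR+CD25+ cells, ribosomal RNA was depleted and single-end reads were sequenced. Per the submitters' processing notes the authors used kallisto and sleuth 0.30.0 with mm10, and deposited gene-level log2(n + 1) values. For the kallisto version, the annotation and the scaling of n: not given in the sources used here.

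Deposited log2 values were used as they stand. Genes with a mean of at least 0.5 were kept (13897, with 707 removed). limma 3.58.1 in R 4.3.3 (trend, eBayes) compared 5 tumor with 6 spleen libraries, and a 4-group model gave within-genotype differences, their interaction and KO minus WT. limma replaced the study's unpaired test with Bonferroni correction, since it shares spread across genes, and Bonferroni was an alternative. Exact permutation tests used scipy 1.17.1. The code was tested on simulated data. Alternatives were 4 scalings, pseudocounts of 0.1 and 5, filters, variance settings, a replicate block and leaving out each library.

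Members and lists were chosen with earlier results of these data known. Named were all members, up to 4 called genes per direction and wider list with the largest differences, the top gene of each marker list, sort genes and the 2 genes most like each member. The Cerkl, Cxcr2, Itgb8, Itga2, Cyth1, Madcam1, Epcam, Lgals4 and Pf4 remarks were chosen after values were seen. The same holds for the Itgax, Lyz2 and Cd14 values by library, the list sums of single libraries and the dendritic cell list. Gene positions are from GENCODE M21.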

Additional observations from a re-analysis of the deposited data

How the results depend on the processing

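The reads behind each value are not known, so no counting error could be given beside the spread between libraries. Of the 10 integrin genes, Itga4, Itga6, Itgam and Itgav kept direction and call in all 24 alternatives when genotypes were pooled. So did 7 of 8 chain pairs in their 14. KO against WT gave 0 called members in either tissue in all 24. Bonferroni adjustment, the study's correction, called 36.3% of all genes and 6 of the 10 members between tissues, with Itgb1 (adjusted p = 1), Itgal (adjusted p = 0.27) and Itgb3 (adjusted p = 1) lost. It called 7 of 14 other integrin chains and 15 of 26 activation genes between tissues, and 5 of the 10 members in WT and 3 in KO. The share of all genes called by Bonferroni within each genotype was not counted, so the WT and KO counts lack a background.

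Quantile normalization reversed Itgb2 (-0.016) and, in KO, Itgb1 (-0.074) and Itgb2 (-0.12), none of them called. Setting library totals equal reversed Itgae (-0.074) and Itgb3 (-0.28, in WT -0.26, in KO -0.30), again without a call. It also took the call from Itgb2 (0.22, limma adjusted p = 0.051). With T cell genes as reference Itgb7 was 0.28 (WT 0.13, KO 0.46), Itgal 0.13 (WT 0.13, KO 0.11) and Itgae in WT 0.72, none of them called. With genotypes pooled, Itgae was called on that reference (1.39, limma adjusted p = 0.000835). Leaving out 1 library moved Itgae in WT from -0.63 to 0.45. The number of members called between tissues was then 8 or 9, beside 76.4% to 79% of all genes. The causes were not tested.

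Replicate numbers are shared between tissues in the labels, but correlations of same-numbered libraries ran from -0.13 to 0.038, under the limit set for pairing. The tissues share animals, but whether a number marks 1 mouse is not given, and these few weak correlations do not settle it. With the replicate block 8 members were called beside 75.6% of all genes, Itgb3 (0.32, limma adjusted p = 0.0531) being lost. In KO Itgae was 1.22 (adjusted p = 0.0828).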

Other observations

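Over the 11 libraries, the genes whose levels followed each integrin gene most closely were listed as a description. The points share the split into tumor and spleen, which alone gives a high correlation, so no p is given. Itgam was closest to Fcgr2b, the inhibitory Fc receptor of myeloid and B cells (Pearson r = 0.999), and to Fes, a kinase known from myeloid cells (0.998). Itgal was closest to Lax1 (0.987) and Zap70 (0.984), both of T cell receptor signalling, and Itga6 to Csk, which restrains that signalling (0.989), and Zfp260 (0.987). Itga4 was closest to B3galt2 and Wnt4 (0.996 each), Itgb7 to Rasa2 (0.988) and Cdo1 (0.986), Itgb1 to Sephs1 (0.987) and Hook3 (0.984), Itgb2 to Flt1 and Pdcd1lg2 (0.992 each), and Itgav to S100a1 and Pqlc3 (0.995 each). The 2 genes with overlapping tissues had lower values, Itgae with Vasp (0.945) and Ceacam15 (0.917) and Itgb3 with Egfr (0.919) and Bicc1 (0.899).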
